A study of Homo sapiens with 4 samples.

Results

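Box C/D small nucleolar RNA (snoRNA) genes were examined in MDA-MB-231, a triple-negative breast cancer cell line, after transfection with an miR-217 mimic or with mimic NC, the negative control. Each group had 2 libraries, numbered 1 and 2, made from TRIzol-extracted RNA with a stranded mRNA kit, and all cells were grown in the same serum-containing medium without any genetic change named in the labels. The genes were selected as those named SNORD with a mean level of at least 1 RPKM (reads-per-million, or RPM, divided by the exon length in kilobases) over the 4 libraries. This gave 100 of the 169 SNORD genes and of the 32955 genes in the table. The selection used the levels in both groups, so the levels themselves are given as a description. Whether the 2 libraries of a group came from separate transfections is not given in the sources used here, and the p-values measure only the spread between these libraries.

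Box C/D snoRNAs are short nuclear RNAs named after a pair of conserved sequence elements, box C near the 5′ end and box D near the 3′ end. The folded boxes bind SNU13, NOP56, NOP58 and the methyltransferase FBL, and the bases upstream of box D pair with ribosomal RNA to direct 2′-O-methylation of a chosen nucleotide. A minority, such as U3, U8, U14 and U22, act in cleavage of the ribosomal RNA precursor, and others are made from the imprinted SNHG14 transcript. In human cells most are released from introns of host genes, many of which encode ribosomal proteins or are noncoding SNHG transcripts, so that one transcription unit yields both a spliced host RNA and a snoRNA.

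The library totals recovered from the RPKM values were 57933183 and 47374957 reads (mimic NC 1 and 2) and 53356283 and 32635814 reads (miR-217 mimic 1 and 2). Of the cell line's markers, ESR1, GATA3 and CDH1 were at or below 0.433 RPKM in all libraries and PGR had no row, but EPCAM lay at 3.90 to 7.41 RPKM and FOXA1 at 1.30 to 1.70. VIM, CD44, AXL and CAV1 were all above 5 RPKM. In the first principal component the libraries separated by their number rather than by the mimic.

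The sequences below are those on which the results turn. They comprise the 3 genes with the highest mean RPKM (SNORD57, SNORD86, SNORD49B), genes with the lowest p in each direction, and the 3 neighbours inside RABGGTB, of which 2 differed in opposite directions. They are the GENCODE 29 transcripts at the coordinates of the table (hg38), read 5′ to 3′ in the sense direction. Capitals mark TGATGA, the box C consensus, where it begins within the first 20 bases, and CTGA, box D, within the last 16 bases.
SNORD57: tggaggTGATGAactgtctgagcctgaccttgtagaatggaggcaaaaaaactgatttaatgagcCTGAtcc
SNORD86: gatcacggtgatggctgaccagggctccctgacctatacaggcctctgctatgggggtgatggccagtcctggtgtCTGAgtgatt
SNORD49B: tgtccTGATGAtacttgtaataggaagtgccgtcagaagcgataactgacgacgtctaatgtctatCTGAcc
SNORD26: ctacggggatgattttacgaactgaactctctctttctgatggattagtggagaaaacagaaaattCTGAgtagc
SNORD34: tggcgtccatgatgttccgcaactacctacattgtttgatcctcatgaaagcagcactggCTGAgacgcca
SNORD82: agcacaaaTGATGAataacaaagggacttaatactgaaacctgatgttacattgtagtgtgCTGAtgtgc
SNORD45C: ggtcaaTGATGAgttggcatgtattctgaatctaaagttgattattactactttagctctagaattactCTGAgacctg
SNORD45A: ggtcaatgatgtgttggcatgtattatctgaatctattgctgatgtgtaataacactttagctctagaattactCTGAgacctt
SNORD45B: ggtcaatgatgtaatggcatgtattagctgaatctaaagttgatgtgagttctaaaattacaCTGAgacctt
SNORD68: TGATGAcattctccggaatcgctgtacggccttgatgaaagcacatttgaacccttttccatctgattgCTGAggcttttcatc
SNORD89: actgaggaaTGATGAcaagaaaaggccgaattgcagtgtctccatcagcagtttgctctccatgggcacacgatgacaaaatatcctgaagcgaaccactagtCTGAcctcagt
SNORD118: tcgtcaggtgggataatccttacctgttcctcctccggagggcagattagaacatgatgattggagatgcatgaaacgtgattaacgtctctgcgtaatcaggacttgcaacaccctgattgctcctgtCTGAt

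These genes lie at chr20:2656939-2657010 and chr20:2656097-2656182 (both plus strand, in NOP56), chr17:16439505-16439576 (plus strand, in LRRC75A-AS1), chr11:62855292-62855366 (minus strand, in SNHG1), chr19:49490904-49490974 (plus strand, in RPL13A) and chr2:231460371-231460440 (minus strand, in NCL). The RABGGTB genes follow each other on the plus strand at chr1:75787072-75787150 (SNORD45C), chr1:75787889-75787972 (SNORD45A) and chr1:75789477-75789548 (SNORD45B). SNORD68 lies at chr16:89561434-89561517 (plus strand, in RPL13), SNORD89 at chr2:101272936-101273049 (minus strand, in RNF149) and SNORD118 at chr17:8173454-8173587 (minus strand, in TMEM107). Of the 97 member copies that GENCODE lists under a SNORD name, 64.9% held TGATGA and 94.8% CTGA in these windows on the sense strand, and 62.9% held both. Of the 28 copies that GENCODE lists under an Rfam family number, 35.7% and 75.0% did. Among the 149 box H/ACA (SNORA) transcripts, the other main snoRNA class, the shares were 0.671% and 5.37%. The sequence match to the box C/D class was thus common among the selected genes, although exact letters in these windows miss boxes with a base change, such as that of SNORD45A.

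Reads were few on most of these genes. Multiplied by exon length, each RPKM value gave a whole number of reads (within 0.01 read), and the reads were recovered in this way. The median selected gene had 17.4 reads per library, with a range of 3.25 to 363, and 30 of the 100 averaged under 10 reads. The 5 genes with most reads, SNORD86, SNORD57, SNORD49B, SNORD3C and SNORD58B, took 34.5% of the reads on the 100 genes. At the edge of the selection, SNORD62, SNORD3D and SNORD116-28 had mean levels of 1.06, 1.01 and 1.00 RPKM, and SNORD121B, SNORD116-7 and SNORD1A, just outside it, had 0.916, 0.903 and 0.881 RPKM. The 69 genes under the limit had a median of 1.5 reads, and 47 of them had no read in some library. A count of 0 allows up to 3 reads, and intervals and limits given here cover counting error only.

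SNORD57 had the highest mean level. Its RPKM was 86.3 and 89.1 in mimic NC (360 and 304 reads) and 86.2 and 146 in the miR-217 mimic (331 and 342 reads). The second miR-217 mimic library stood above the other 3, which were close together. SNORD86, which lies in the same host gene NOP56, had 96.1 and 58.7 RPKM in mimic NC and 102 and 95.1 RPKM with the mimic (479, 239, 467 and 267 reads), so that the low library was mimic NC 2. SNORD49B had 65.7 and 116 RPKM in mimic NC and 69.0 and 125 RPKM with the mimic (274, 395, 265 and 293 reads). It followed the library number and not the transfection. SNORD58B, in the ribosomal protein gene RPL17, had 52.0 and 40.3 RPKM against 55.9 and 58.5 RPKM. SNORD108, from the imprinted locus on chromosome 15, had 43.0 and 58.6 RPKM against 34.6 and 41.0 RPKM, with mimic libraries at the lower end and both below both controls. None of these differences passed the test against the spread between libraries (adjusted p = 1.00 for each, limma with Benjamini-Hochberg adjustment). The other genes among the 12 with the highest mean were SNORD54, SNORD4A, SNORD26, SNORD21, SNORD101, SNORD19B and SNORD45B, at 17.0 to 31.0 RPKM.

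**Figure D1:**
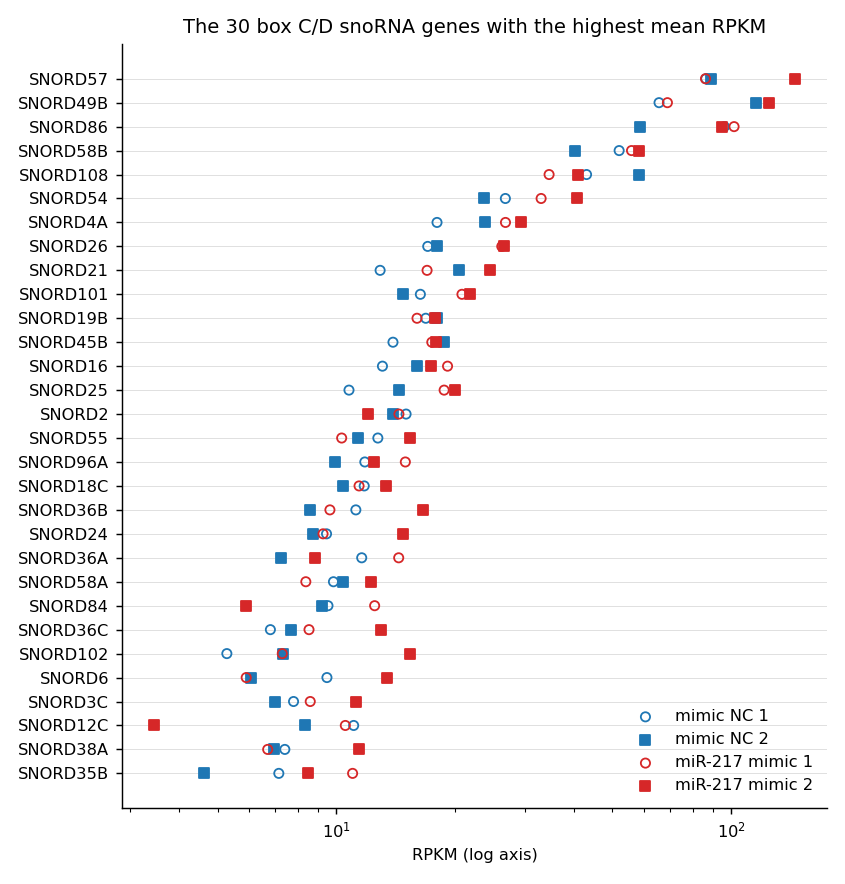
RPKM (log axis) of the 30 box C/D snoRNA genes with the highest mean, with 1 point per library (blue, mimic NC; red, miR-217 mimic; open circles, number 1; filled squares, number 2). SNORD57 reaches 146 RPKM only in the second miR-217 mimic library, and SNORD49B is higher in both libraries numbered 2.

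Summed over the 100 genes, snoRNA reads took a larger share of the second miR-217 mimic library than of the other 3. The sums were 4602 and 3727 reads in mimic NC and 4507 and 3384 reads with the mimic. In RPM, a share of all reads of the library, these were 79.4 (95% exact Clopper-Pearson interval 77.2 to 81.8) and 78.7 (76.2 to 81.2) in mimic NC, 84.5 (82.0 to 87.0) in miR-217 mimic 1 and 104 (100.2 to 107.2) in miR-217 mimic 2. The group means were 79.1 ± 0.542 and 94.1 ± 13.6 (SD, n = 2), a log2 ratio of 0.25. Both mimic libraries lay above both controls, which in an exact permutation test of 2 against 2 libraries cannot give a p below 0.333. Without miR-217 mimic 2 the log2 ratio was 0.10, and the mimic to control ratio was 1.06 between the libraries numbered 1 and 1.32 between those numbered 2. The excess in miR-217 mimic 2 was not carried by the 3 most abundant genes alone: without them the sums were 60.2, 58.9, 64.5 and 76.1 RPM. Other genes shorter than 200 bases took 4160, 4252, 3963 and 4864 RPM in the same order of libraries, and so were also highest in miR-217 mimic 2, which was the smallest library. The part that these features had in the result was not tested.

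**Figure D2:**
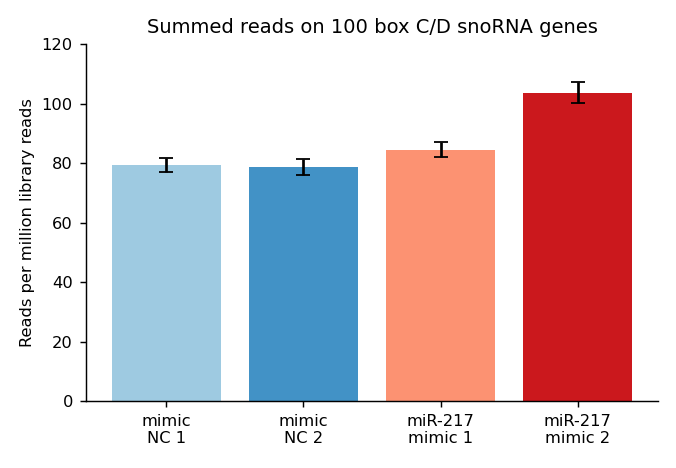
Reads on the 100 box C/D snoRNA genes in RPM, 1 bar per library, with 95% exact Clopper-Pearson intervals of the counting error as error bars. The second miR-217 mimic library stands at 104 and the other 3 libraries between 78.7 and 84.5.

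Gene by gene, no box C/D snoRNA gene passed an adjusted p under 0.05 between miR-217 mimic and mimic NC with limma, and neither did any of the 13871 genes tested (percent called 0). At an unadjusted p under 0.05, 10 of the 100 were higher with the mimic and 4 lower. The background of all tested genes was 0.483% higher and 0.707% lower, and that of the 390 other tested genes shorter than 200 bases was 5.13% higher and 6.15% lower. Short genes as a whole were thus past this threshold more often than long ones. With limma voom on the recovered reads, 1 was higher and 2 were lower, and none passed the adjusted p. The share over all genes with voom is not given. In 28 of the 100 both mimic libraries lay above both controls (all genes 9.72%) and in 9 both lay below (all genes 13.5%). The median log2 fold change, on the log2(RPKM + 1) scale used for every log2 value of this kind, was 0.27 over the 100 genes and -0.02 over all genes tested, and 73 of the 100 values were positive. Over all 169 SNORD genes without a limit on the level it was 0.10, with 101 positive. Because a gene could pass the limit through the group where it was high, the 88 genes with a mean of at least 1 RPKM in both groups were also taken alone: the median was 0.26, with 8 higher and 3 lower.

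This leaning rested on miR-217 mimic 2. Between the libraries numbered 1 the median difference was 0.01 and 50 of 100 values were positive, and between those numbered 2 it was 0.35 and 71 were positive. Without miR-217 mimic 2 the median fell to 0.01, and without miR-217 mimic 1 it was 0.33. Across the 100 genes the difference in one pair of libraries was nearly unrelated to that in the other (Pearson's r = 0.06 across genes, which are not independent and share the library totals). In 36 genes both pairs were positive and in 15 both were negative.

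**Figure D3:**
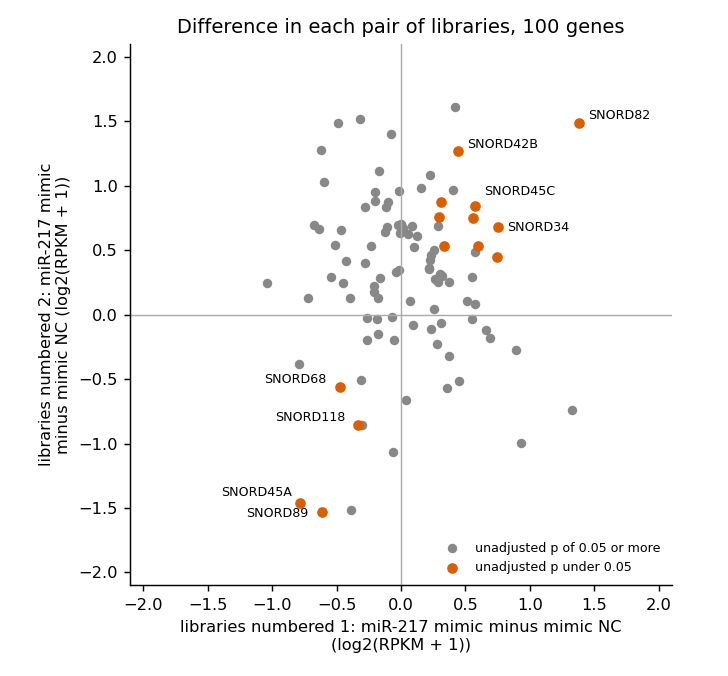
Each point is 1 of the 100 box C/D snoRNA genes, placed by the difference between miR-217 mimic and mimic NC on the log2(RPKM + 1) scale in the libraries numbered 1 (horizontal) and numbered 2 (vertical). Orange points, 14 genes with an unadjusted p under 0.05, lie where both pairs agree in sign, a pattern that choosing genes by a low p favours. The remaining points are centred near 0 horizontally (median over all genes 0.01) and above 0 vertically (median 0.35).

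SNORD82, an intronic snoRNA of the nucleolin gene NCL that shares no base with an exon, had the largest positive value. Its mean in mimic NC was 0.302 RPKM, so it met the 1 RPKM limit only through the mimic libraries, was not among the 88 genes above the limit in both groups, and its values are given as a description. It had 0 and 2 reads in mimic NC (0 and 0.603 RPKM) and 6 and 8 reads with the mimic (1.61 and 3.502 RPKM), so the groups did not overlap but all 4 counts were small. The ratio of the pooled RPM was 8.57 (95% exact interval of counting 1.97 to 77.7), and the log2 fold change was 1.44 ± 0.357 (SE). SNORD20, its neighbour in NCL, had 7, 6, 5 and 5 reads and a log2 fold change of -0.02. The host NCL, at 762 and 1142 RPKM in mimic NC and 838 and 1289 RPKM with the mimic, differed by 0.16 and followed the library number.

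SNORD34, SNORD26, SNORD45C, SNORD42B and SNORD101 were the other genes with the lowest p on the higher side. SNORD34, in RPL13A, had 1.94 and 1.78 RPKM in mimic NC and 3.96 and 3.45 RPKM with the mimic, from 8, 6, 15 and 8 reads. Its log2 fold change was 0.71 ± 0.125, where the SE measures the spread between libraries and not counting error. Its pooled ratio of RPM was 2.01, and the 95% exact interval of counting (0.992 to 4.23) included 1. The intervals of SNORD42B (1.14 to 3.14) and SNORD101 (1.05 to 1.75) did not include 1. SNORD26, in SNHG1, had 17.0 and 18.01 against 26.2 and 26.6 RPKM, from 74, 64, 105 and 65 reads, and a log2 fold change of 0.57 ± 0.115. It was the best covered of these genes, and the ratio of mimic to control RPM was 1.54 (95% exact interval 1.13 to 2.103) between the libraries numbered 1 and 1.47 (1.03 to 2.12) between those numbered 2. Its neighbour SNORD25 had 10.8 and 14.4 against 18.7 and 19.98 RPKM. SNORD42B, in RPL23A, had 4.89 and 2.84 against 6.99 and 8.23 RPKM, and SNORD101, in RPS12, had 16.3 and 14.7 against 20.8 and 21.8 RPKM. In all of these both mimic libraries were above both controls, a pattern that choosing genes by a low p favours. SNORD54, SNORD35B and SNORD70 completed the 10, of which SNORD70, like SNORD82, met the 1 RPKM limit only through the mimic libraries. Leaving out a library ended some of these calls: without mimic NC 2 the log2 fold changes of SNORD45C, SNORD42B and SNORD101 were 0.50, 0.54 and 0.37 and no longer passed, nor did SNORD26 (0.53) and SNORD101 (0.50) without mimic NC 1 or SNORD101 (0.40) without miR-217 mimic 2.

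**Figure D4:**
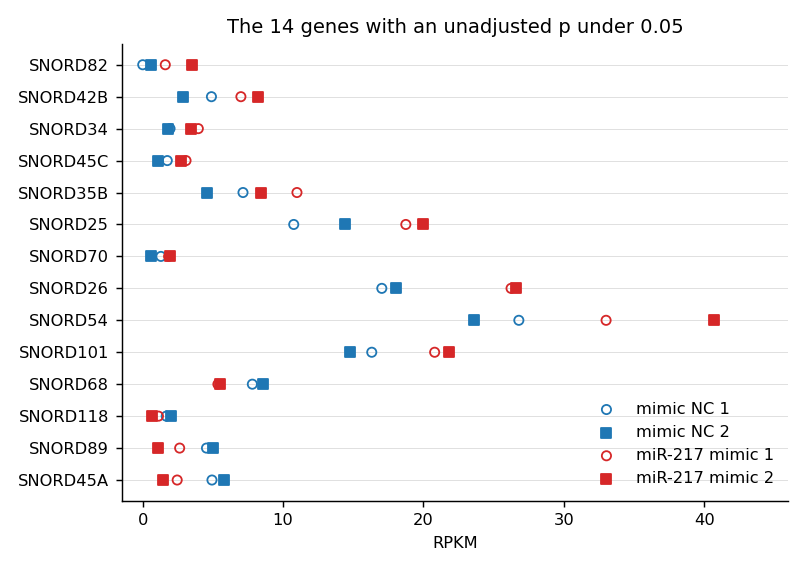
RPKM of the 14 box C/D snoRNA genes with an unadjusted p under 0.05, ordered by log2 fold change, with 1 point per library (blue, mimic NC; red, miR-217 mimic; open circles, number 1; filled squares, number 2). In each gene the red and blue points do not overlap, a pattern that choosing genes by a low p favours. Of the 14, 9 lie below 9 RPKM in all libraries.

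On the lower side, SNORD45A had 24 and 23 reads in mimic NC and 11 and 4 reads with the mimic (4.93 and 5.78 against 2.45 and 1.46 RPKM). Its log2 fold change was -1.12 ± 0.203, and the pooled ratio of RPM was 0.391 (95% exact interval 0.203 to 0.711). SNORD89, in RNF149, had 30 and 27 reads against 16 and 4 (4.54 and 5.00 against 2.63 and 1.08 RPKM), a log2 fold change of -1.07 ± 0.286 and a pooled ratio of 0.430 (0.245 to 0.726). For both genes the second miR-217 mimic library was the lowest, opposite to the summed reads. SNORD68, in RPL13, had 7.81 and 8.54 against 5.35 and 5.47 RPKM (38, 34, 24 and 15 reads), with close replicates. SNORD118, known as U8, the snoRNA required for cleavage around 5.8S and 28S ribosomal RNA, had 13, 13, 8 and 3 reads, and all of its bases lie in an exon of TMEM107. It met the 1 RPKM limit only through the mimic NC libraries, where it was high. Its pooled ratio of RPM was 0.518, and the 95% exact interval of counting (0.231 to 1.09) included 1. SNORD116-22 and SNORD12B, next by p, did not pass an unadjusted p of 0.05 and had log2 fold changes of -0.59 and -0.58. Without mimic NC 2, SNORD68 (-0.46) and SNORD118 (-0.50) no longer passed, and neither did SNORD118 (-0.43) without miR-217 mimic 2. Under voom on the recovered reads, SNORD45A and SNORD89 stayed below an unadjusted p of 0.05, as did SNORD82, which had met the limit only through the mimic libraries.

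The 3 snoRNA genes of RABGGTB, whose sequences are printed above, had unlike values. SNORD45A was lower with the mimic, while SNORD45C had 8 and 4 reads in mimic NC and 13 and 7 with the mimic (1.75 and 1.07 against 3.08 and 2.72 RPKM) and a log2 fold change of 0.71 ± 0.180. SNORD45B, the most abundant, had 13.9 and 18.8 against 17.4 and 17.9 RPKM, a log2 fold change of 0.12, and groups that overlapped. SNORD45C and SNORD45A were 84.5% identical over a global alignment, and each was 75.0% to 75.3% identical to SNORD45B. RABGGTB itself, which encodes a subunit of a lipid transferase for Rab proteins, had 9.13 and 9.93 against 9.47 and 12.7 RPKM. All 3 snoRNAs lie wholly in exons of an annotated RABGGTB transcript, so reads of the host and of the snoRNA could not be separated by position, and the difference between SNORD45A and SNORD45C itself was not tested.

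The snoRNAs with a role in ribosomal RNA processing were all at low to moderate level. SNORD3C, a U3 gene whose annotated length is 581 bases and which has no host, had 7.78 and 6.98 against 8.58 and 11.2 RPKM (262, 192, 266 and 212 reads) and a log2 fold change of 0.37. The other selected U3 gene, SNORD3D, had 10, 8, 22 and 4 reads and met the 1 RPKM limit only through the mimic libraries. U3 directs the early cleavages of the precursor, and its genes are near copies of each other that can share reads. The U14 genes lie in RPS13 (SNORD14B) and HSPA8 (SNORD14C, SNORD14D and SNORD14E), and U14 pairs with 18S ribosomal RNA. SNORD14B had 4.79, 4.22 and 3.124 RPKM in mimic NC 1, mimic NC 2 and miR-217 mimic 1, and 13.6 RPKM in miR-217 mimic 2 (25, 18, 15 and 40 reads). SNORD14C had 3, 6, 4 and 12 reads and SNORD14D had 12, 10, 9 and 16 reads in the same order. SNORD14E had 14, 10, 11 and 9 reads, with a mimic to control ratio of 1.31 (95% exact interval 0.470 to 3.58) between the libraries numbered 2. In reads, SNORD14B, SNORD14C and SNORD14D were thus highest in miR-217 mimic 2, the smallest library. In RPM, SNORD14E was also highest there. The median difference over the 4 U14 genes was -0.18 between the libraries numbered 1 and 1.02 between those numbered 2. SNORD22 (U22), in SNHG1, had 7.08 and 6.31 against 7.39 and 10.2 RPKM. Of the guides for U6 small nuclear RNA, SNORD10 had 2.92 and 2.68 against 3.70 and 3.45 RPKM and SNORD94 had 2.02 and 2.31 against 3.42 and 2.24 RPKM.

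Of the 28 imprinted chromosome 15 genes in the table, 9 were above the limit, all within SNHG14. They were SNORD107, SNORD108, SNORD109A and 6 copies of SNORD116, and their median log2 fold change was 0.01, with 5 of 9 positive. Both pairs of libraries had a negative median here, -0.28 and -0.23. The SNORD116 copies had mean levels of 1.00 to 2.31 RPKM and were 67.7% to 98.9% identical to each other, so reads may be shared among them. SNORD108 stood far above the rest of this locus at 44.3 RPKM. SNHG14 had a mean of 1.31 RPKM, and PWAR5, whose exon holds all bases of SNORD108, had 2.46 RPKM from 454, 442, 376 and 232 reads, compared with 177, 197, 131 and 95 reads on SNORD108 alone.

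The host genes were taken from the annotation as the gene that surrounds the snoRNA on the same strand. A host was found for 99 of the 100, in 53 genes, of which 51 were tested. The median log2 fold change of the hosts was 0.07, 37 of 51 were positive, and none passed an unadjusted p of 0.05 with limma or with voom. The hosts' median moved with the libraries used, to -0.0042 without miR-217 mimic 2, to 0.13 without miR-217 mimic 1 and to 0.03 without mimic NC 1. Across 97 snoRNAs with a tested host, the log2 fold change of the snoRNA and that of its host were close to unrelated (Pearson's r = 0.07, Spearman's rho = 0.07, across genes of which many share a host). The host values ranged only from -0.22 to 0.31 and many snoRNA genes had few reads, which limits what these correlations can show. The snoRNA's value exceeded the host's in 61 of 97.

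Levels of snoRNA and host were also only loosely related. For the 89 genes on 1 chromosome with a host, Pearson's r of the log2 mean RPKM was 0.17 and Spearman's rho 0.20. The median snoRNA stood at 12.2% of its host's RPKM, and 16 of 89 were above their host. SNORD108 reached 3372% of SNHG14, SNORD49B 583% of LRRC75A-AS1, SNORD26 354% of SNHG1 and SNORD57 222% of NOP56, whereas SNORD82 was at 0.142% of NCL. The share of a snoRNA's bases that lie in exons of other genes on the same strand went with its level: the median was 5.99 RPKM for the 50 genes wholly in such exons, 3.67 for the 21 partly in them and 2.75 for the 29 with none. The 29 without shared bases had a median log2 fold change of 0.26, 2 higher and none lower at an unadjusted p under 0.05 with limma. The shares over all genes tested were 0.483% and 0.707%, and over other genes shorter than 200 bases 5.13% and 6.15%. The 2 higher genes include SNORD82, which met the 1 RPKM limit only through the mimic libraries. The same holds for SNORD127, SNORD62 and SNORD116-19 among the 29. All of these enter the median and the sums, which are given as a description. Summed over the 29 genes, RPM was 16.7 and 14.6 in mimic NC and 18.3 and 19.5 with the mimic. Both mimic libraries were above both controls, and the pair of mimic libraries was close. Of the 29, SNORD4A, in RPL23A, had the highest mean RPKM, with 17.98 and 23.7 against 26.8 and 29.4 RPKM. All of its 72 bases lie in an exon on the other strand, and whether reads were counted by strand is not given.

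**Figure D5:**
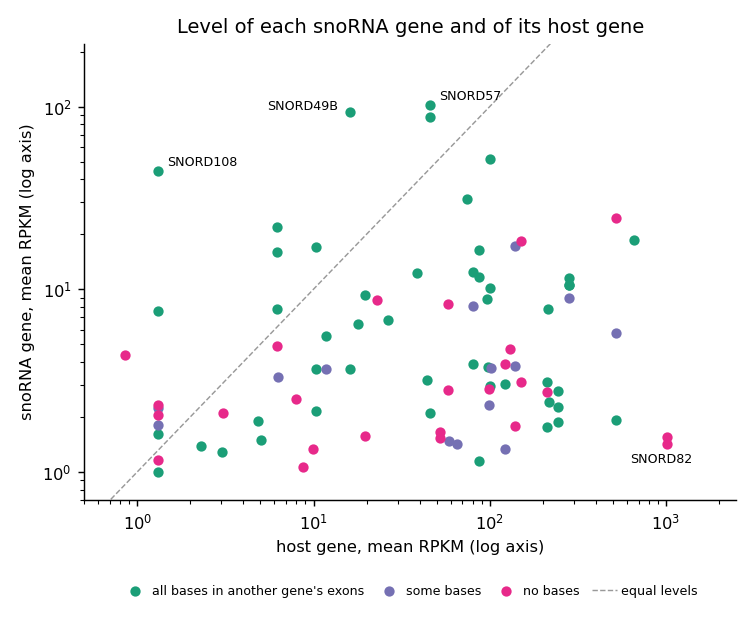
Mean RPKM of each box C/D snoRNA gene (vertical, log axis) against that of its host gene (horizontal, log axis) for the 89 genes on 1 chromosome, coloured by whether all, some or none of the snoRNA's bases lie in exons of other genes. The dashed line marks equal levels, and 16 genes, mostly with all bases shared, lie above it.

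Grouped by kind of host, a split made after the values had been seen, the 33 snoRNAs of ribosomal protein genes had a median log2 fold change of 0.33 and 30 were positive. Their median was 0.10 between the libraries numbered 1, with 17 positive, and 0.54 between those numbered 2, with 30 positive. The 16 ribosomal protein hosts had a median of 0.06. The 23 snoRNAs of noncoding hosts (SNHG genes, ZFAS1 and LRRC75A-AS1) had a median of 0.03 and 14 were positive. Among hosts with at least 3 selected snoRNAs, all snoRNA values were positive in RPL7A (4 genes, 0.27 to 0.49), HSPA8, RPL13A, RPL3 and RPL4, and the signs were mixed in SNHG14, SNHG1, NOP56, GNL3, RABGGTB, RPL17 and RPL23A. SNORD43 in RPL3 and SNORD18B in RPL4 met the 1 RPKM limit only through the mimic libraries. All 9 selected genes of that kind had positive values, and these 2 also count among the 30 positive values of the 33. RPL7A, which holds SNORD24, SNORD36A, SNORD36B and SNORD36C, had 310 and 234 RPKM in mimic NC and 321 and 260 RPKM with the mimic. RPL13A, which holds SNORD32A, SNORD34 and SNORD35A, had 253 and 244 against 256 and 229 RPKM, a log2 fold change of -0.04.

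The box C/D particle is built from core proteins with the help of assembly factors, and the snoRNA ends are trimmed by exonucleases. Of 21 genes for core proteins, assembly factors and processing enzymes, 20 were tested, 15 had positive and 5 negative values, and none passed an unadjusted p of 0.05 with limma or voom. Their median log2 fold change was 0.07 and their range -0.17 to 0.23. FBL, the methyltransferase, had 35.0 and 41.9 RPKM in mimic NC and 39.5 and 29.3 with the mimic. NOP56 had 39.1 and 45.2 against 45.3 and 53.9 RPKM, NOP58 had 54.3 and 69.3 against 55.7 and 82.0 RPKM, and SNU13 had 14.02 and 14.2 against 14.2 and 15.9 RPKM. NOLC1, a nucleolar and Cajal body chaperone of snoRNPs, was the most abundant of the list, at 83.6 and 124 against 93.96 and 143 RPKM, higher in both libraries numbered 2.

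Between the libraries numbered 2 and 1, with the transfection as a covariate, 5 snoRNA genes were higher and 3 lower at an adjusted p under 0.05 in limma, compared with 3.69% and 4.69% of all genes tested. The higher ones were SNORD49B (log2 difference 0.83), SNORD87 (0.83), SNORD82 (0.73), SNORD83B (0.72) and SNORD21 (0.57). The lower ones were SNORD38 (-1.66), SNORD36A (-0.63) and SNORD17 (-0.42). SNORD82 had only 2 reads in mimic NC and 14 with the mimic, each over 2 libraries, so its value rests on few reads. SNORD38 had 124 and 118 reads in the libraries numbered 1 and 33 and 11 in those numbered 2. This gene identifier joins 4 copies on different chromosomes, so the locus of its reads cannot be told. With voom on the recovered reads 3 snoRNA genes passed, and with no filter on low values none did. Among the 51 hosts, 9 were higher in the libraries numbered 2 and none lower, namely C6orf48, ZFAS1, HSPA9, C19orf48, LRRC75A-AS1, SNHG1, NCL, WDR43 and SNHG5. ZFAS1 had 31.9 and 35.0 RPKM in the libraries numbered 1 and 83.0 and 80.6 in those numbered 2, while its intronic SNORD12C had 57 and 50 reads against 35 and 10, and SNORD12B had 20 and 14 against 14 and 4. The host's RPKM was thus higher and the snoRNA reads were fewer in the libraries numbered 2. Those libraries also had fewer reads in total within each group. Neither SNORD12C nor SNORD12B passed between the library numbers, and a difference between host and snoRNA was not tested.

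Of the 100 genes, 14 join several copies under one name, 10 of them on more than 1 chromosome, and their values are sums over loci that may be read differently. SNORD56, with 7 copies, had 93 and 97 reads in mimic NC and 78 and 136 with the mimic. The 10 genes on several chromosomes had a median log2 fold change of 0.10 and no call at an unadjusted p under 0.05 with limma.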

How the data were processed

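RNA-seq of 2 mimic NC and 2 miR-217 mimic libraries of MDA-MB-231 was analysed. Per the labels, the authors trimmed reads with Trimmomatic 0.36 and counted them with featureCounts (Subread 1.5.1) on hg38, and edgeR 3.12.1 is named. The aligner, annotation and counting options are not given in the sources used here. The authors deposited RPKM values, scaled by summed exon length and a library total. The totals were recovered from the value of 1 read, and whether they carry another scaling between libraries was not checked. Since snoRNA genes are short and most share bases with exons of other genes, counting options can change their values, and a mature snoRNA is not the target of an mRNA kit.

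Reads were recovered as whole multiples (100% of values within 0.01 read). Coordinates of all 225 SNORD copies matched GENCODE 29 exactly. Genes with a mean of at least 1 RPKM (13871) were tested on log2(RPKM + 1) with limma 3.58.1 in R 4.3.3 (lmFit, eBayes with trend), two-sided, without a replicate term, with Benjamini-Hochberg adjustment over all genes tested. The fits were tested on simulated data first, where only genes averaging at least 50 reads were changed and the library number had no effect. Of the 100 snoRNA genes 21 average that many reads, so the simulation does not cover the others. Groups came from the labels. Genes were named by rule: the 12 with the highest mean RPKM, the 6 with the lowest p in each direction, ribosomal RNA processing and imprinted genes, members of hosts with at least 3, those at the edge of the limit, SNORD82, SNORD45A and SNORD89, the 5 with most reads, their hosts and the particle proteins. Genes named between the library numbers were those that passed. The values of 1 host gene are not reported here. The members, lists and rules were chosen with earlier results of these data known. Results were recomputed with limma voom, with a replicate block, with median centring, without each library in turn, without a filter, with limits of 5 RPKM or 10 reads, with a pseudocount of 0.1, and over members without shared bases. The set with at least 1 RPKM in both groups was added after the values had been seen.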

Additional observations from a re-analysis of the deposited data

How the results depend on the processing

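No alternative gave a snoRNA gene at an adjusted p under 0.05 between the groups. The number of snoRNA genes higher and lower at an unadjusted p under 0.05 (10 and 4) was 6 and 1 at a mean RPKM of at least 5, 1 and 2 with voom, and 2 and 0 among members without shared bases. It ranged from 7 to 36 higher and 4 to 9 lower when each library was left out. The libraries share replicate numbers 1 and 2, which the labels do not explain, and the same-numbered libraries deviated together (r = 0.68, a single value with 2 pairs). With a replicate block the counts were 26 and 9, and with voom and the replicate block 3 and 2. The block gave 4 hosts and 2 particle protein genes at an unadjusted p under 0.05 in place of 0, and voom with the replicate block 6 and 3. Leaving out each library gave 0 to 2 hosts. The median log2 fold change of the snoRNA genes ranged from 0.014 to 0.331 when each library was left out, and that of the hosts from -0.0042 to 0.134. The 8 snoRNA genes called between the library numbers were 0 with no filter, 3 with voom and 3 among members without shared bases. The cause of these differences was not tested. Of the 12 snoRNA genes made up of the 6 with the lowest p in each direction, no value changed sign under 131 combinations of gene and alternative, 105 kept their side of 0.05, 22 lost it and 4 gained it. In a fit without 1 library the lone sample of its group is assumed to vary like the other group. Depth limits these values: 20 to 34 of the 100 genes had under 10 reads in a library.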
